A study of Mus musculus with 12 samples.

Results

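The genes described here encode the peptide hormones of the mouse pancreatic islet other than insulin: glucagon (Gcg), somatostatin (Sst), pancreatic polypeptide (Ppy), peptide YY (Pyy) and neuropeptide Y (Npy). They were chosen by name, as the hormone genes of the alpha, delta and PP cells and the other members of the neuropeptide Y family, and all 5 are among the 22141 genes with counts. The study asked how the complement fragment C3a acts on islets that are exposed to a fatty acid. Islets of wild-type male mice, 10 to 12 weeks of age, were held in culture in lots of about 120. There were 4 groups of 3 libraries each, which received vehicle, vehicle with C3a, palmitate, or both palmitate and C3a. C3a is a cleavage fragment of complement component C3, and palmitate, a saturated fatty acid, is toxic to beta cells at high levels. No dose or duration stands in the labels. They also do not say whether libraries came from separate mice or cultures, and a p value therefore speaks only of the spread among these libraries, which may be technical.

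Glucagon from alpha cells raises blood glucose and also stimulates insulin secretion within the islet, and somatostatin from delta cells restrains both alpha and beta cells. Pancreatic polypeptide, peptide YY and neuropeptide Y form 1 family that acts on the Y receptors. In the islet Ppy marks PP cells, Pyy is made in several endocrine cell types, and Npy is found in sympathetic nerves and in some islet cells.

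Sequencing batch 1 held the 4 libraries numbered 1, with 22216420 to 26110989 counts each, and batch 2 the 8 libraries numbered 2 or 3, with 35876350 to 50264695 counts each, so that each batch held all 4 groups. The test was edgeR's quasi-likelihood test with batch as a term over 15794 genes, and genes with a Benjamini-Hochberg adjusted p below 0.05 were called. Changes are log2 fold changes ± standard error, and CPM is a count per 1000000 counts after scaling between libraries. Palmitate with C3a replicate 3 stood apart in 8 fibroblast and pericyte markers, summed to 1494 CPM against 187 to 767 in the other libraries, and in 8 macrophage markers, at 406 against 187 to 333. In whole islets, fewer cells of a type and less RNA per cell cannot be told apart.

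The hormone genes spanned a wide range of levels. On counts per transcript length, scaled to sum to 1000000, Gcg stood at 40466 ± 7712 (SD, n = 12 libraries of all groups), which ranked between 2 and 4 among all genes in every library. Ppy, Pyy and Sst lay close together, at 4361 ± 981, 3575 ± 503 and 3365 ± 312, and their ranges over the libraries overlapped. Npy stood at 9.07 ± 4.43. For reference, the insulin genes Ins2 and Ins1 stood at 296801 ± 26156 and 64414 ± 8608 on the same scale, and Iapp, the beta cell peptide amylin, at 36946 ± 3217. Lengths were those of the whole transcripts.

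**Figure D1:**
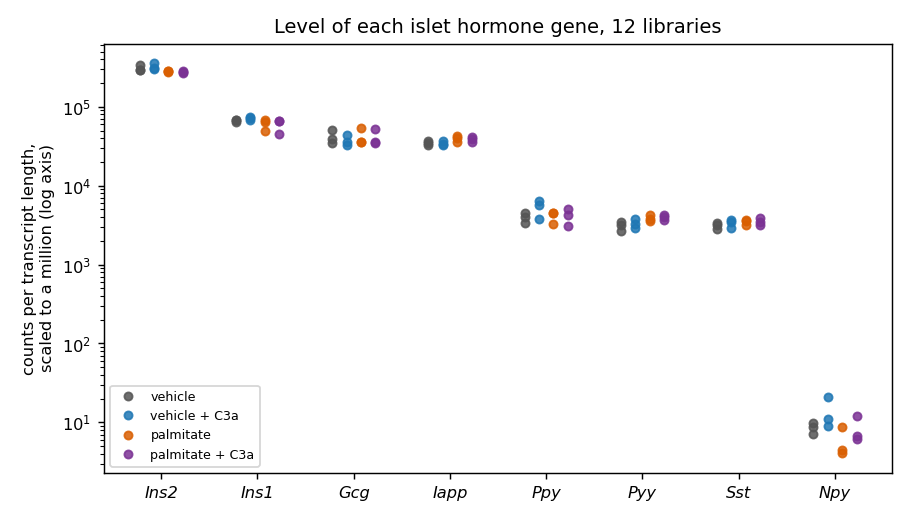
Level of each islet hormone gene in the 12 libraries, as counts per transcript length scaled to sum to 1000000, on a log axis. Ins2, Ins1, Gcg and Iapp lie above Ppy, Pyy and Sst, and Npy lies near 9.07, far below the others.

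Behind these levels were 729043 to 1273067 Gcg counts per library, 39448 to 85255 for Sst, 36786 to 97243 for Ppy and 25421 to 71807 for Pyy. Npy had 61 to 187 counts per library. The spread within groups also differed. The SD of Ppy was 17.5% to 26.4% of its group mean, against 8.57% to 12.4% for Pyy and 7.48% to 14.5% for Sst, and that of Npy was 16.4% to 49.6%.

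Gcg (ENSMUSG00000000394.15) lies on the minus strand of chromosome 2 at 62474530 to 62483650 (GRCm38). In vehicle it was at 38131, 24155 and 26487 CPM for replicates 1, 2 and 3, and with C3a at 32897, 25348 and 23852. In palmitate it was at 36530, 25566 and 26489 CPM, and in palmitate with C3a at 34848, 24607 and 25232. The 4 libraries of batch 1 were above all 8 of batch 2, and the groups overlapped fully. Gcg differed by 0.01 ± 0.06 (95% interval -0.12 to 0.13, adjusted p = 0.963) between palmitate and vehicle and by 0.04 ± 0.06 (-0.09 to 0.17, adjusted p = 0.677) between the same conditions with C3a. These intervals are the narrowest of the 5 genes. Neither difference was past the threshold.

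Sst (ENSMUSG00000004366.4) lies on the minus strand of chromosome 16 at 23889573 to 23890958. It was at 1632, 1373 and 1605 CPM in vehicle and at 1909, 1423 and 1717 in vehicle with C3a. In palmitate it was at 1691, 1571 and 1879 CPM, and in palmitate with C3a at 1789, 1541 and 1690. The second replicate was the lowest in every group, and the ranges of the groups overlapped. Sst differed by 0.16 ± 0.10 (adjusted p = 0.269) between palmitate and vehicle, with all 3 same-numbered pairs higher in palmitate, and by -0.01 ± 0.10 (adjusted p = 0.978) with C3a present. The 95% interval of the first was -0.06 to 0.38.

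The Sst upstream window is shown because Sst is the only one of the 5 genes with a cyclic AMP response element, the site through which CREB family factors act, in the 250 bases before its RefSeq start. The element TGACGTCA, in capitals, begins 48 bases before that start. The stretch is at chr16:23890875-23890902 (RefSeq, GRCm38.p6, minus strand, 5′ to 3′) and falls inside the longer GENCODE transcript of Sst.
Sst: cctccttggcTGACGTCAgagagagagt
The same 8 letters, which read alike on both strands, were in 1.55% of 32851 windows of this length before mouse gene starts. A match of letters is a description of the sequence and not a shown binding site.

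Ppy (ENSMUSG00000017316.13) and Pyy (ENSMUSG00000017311.15) are neighbours on the minus strand of chromosome 11, at 102099930 to 102101319 and 102106676 to 102107832, with 5356 bases and 0 annotated genes between them. Ppy was at 1574, 1107 and 1322 CPM in vehicle and at 2014, 1263 and 2150 in vehicle with C3a. In palmitate it was at 1476, 1093 and 1594 CPM, and in palmitate with C3a at 1358, 1710 and 1033. The lowest library of each group was at 1033 to 1263 CPM, and all groups overlapped. Ppy differed by 0.06 ± 0.26 (-0.53 to 0.65, adjusted p = 0.895) between palmitate and vehicle and by -0.40 ± 0.26 (-0.99 to 0.19, adjusted p = 0.309) with C3a present.

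Pyy was at 1051, 1160 and 1267 CPM in vehicle and at 1315, 1430 and 1674 in palmitate. Every palmitate library was above every vehicle library. Pyy rose by 0.34 ± 0.08 (0.17 to 0.52, adjusted p = 0.00892), with all 3 same-numbered pairs higher. With C3a it was at 1157, 1222 and 1442 CPM without palmitate and at 1403, 1618 and 1396 with it. These groups overlapped, since vehicle with C3a replicate 3 was above 2 of the 3 palmitate libraries. The difference of 0.21 ± 0.08 (0.03 to 0.39) was not past the threshold, with adjusted p = 0.0769. Averaged over both C3a states, Pyy rose by 0.28 ± 0.06 (0.15 to 0.40, adjusted p = 0.00224) and was higher in 5 of 6 same-numbered pairs.

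Both calls of Pyy were lost in batch 2 alone, and that of palmitate against vehicle also without a batch term. In batch 2 alone the difference between palmitate and vehicle was 0.36 (adjusted p = 0.0946) and the average was 0.27 (adjusted p = 0.0514), and without a batch term the first was 0.35 (adjusted p = 0.0871). Batch 1 holds 1 library per group, in which Pyy was higher with palmitate by 0.32 without C3a and by 0.28 with it, with no test possible. With C3a present, the difference passed without vehicle with C3a replicate 3 (0.28, adjusted p = 0.0404) or without palmitate with C3a replicate 3 (0.28, adjusted p = 0.0291), the library with the high fibroblast and macrophage sums, without which the average was 0.32 (adjusted p = 0.00077).

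The 250 bases before the starts of the neighbouring genes are printed because Pyy was called with palmitate and Ppy was not. A different response of these neighbours was not shown (Pyy per Ppy count, exact permutation, adjusted p = 0.173). The letters TATAAA, the core of a TATA box, searched on both strands, are in capitals. The Ppy window is chr11:102101320-102101569 and the Pyy window chr11:102107833-102108082 (RefSeq, GRCm38.p6, minus strand, 5′ to 3′).
Ppy: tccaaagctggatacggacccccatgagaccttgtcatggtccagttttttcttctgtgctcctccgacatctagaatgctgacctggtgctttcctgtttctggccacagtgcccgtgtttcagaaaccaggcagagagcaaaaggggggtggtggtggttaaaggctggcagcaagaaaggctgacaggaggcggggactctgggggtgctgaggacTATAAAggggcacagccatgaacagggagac
Pyy: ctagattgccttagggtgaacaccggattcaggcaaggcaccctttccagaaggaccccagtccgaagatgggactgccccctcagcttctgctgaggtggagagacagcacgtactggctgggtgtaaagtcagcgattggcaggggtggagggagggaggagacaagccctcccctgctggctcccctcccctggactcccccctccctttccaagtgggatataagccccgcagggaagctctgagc
The Ppy window holds TATAAA beginning 31 bases before the start, and the Pyy window does not hold these exact letters. They were in 12.4% of the 32851 windows. The exact search passes over near matches such as tataag, which the Pyy window holds near its end, so it does not show that Pyy lacks a TATA box. The window of another Pyy start, chr11:102107777-102108026, does not hold TATAAA either. A part of these sequences in the Pyy change was not tested. Of the other genes, Gcg has TATAAA at 24 bases before its start and, on the opposite strand, at 72.

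Npy (ENSMUSG00000029819.6) lies on the plus strand of chromosome 6 at 49822710 to 49829507. It was at 3.56, 2.67 and 3.65 CPM in vehicle and at 8.44, 4.25 and 3.47 in vehicle with C3a. In palmitate it was at 3.24, 1.73 and 1.63 CPM, and in palmitate with C3a at 2.25, 4.68 and 2.58. The highest value came from vehicle with C3a replicate 1, and palmitate and vehicle libraries overlapped both without and with C3a. Npy differed by -0.64 ± 0.37 (-1.46 to 0.17, adjusted p = 0.24) between palmitate and vehicle and by -0.64 ± 0.36 (-1.44 to 0.16, adjusted p = 0.23) with C3a present. The latter was -0.10 in batch 2 alone and ran from -1.11 to -0.23 with 1 library left out, passing without palmitate with C3a replicate 2 (adjusted p = 0.023). The average of -0.64 ± 0.26 was lower in 5 of 6 same-numbered pairs and was not past the threshold, with adjusted p = 0.0703. Under 19 of 21 alternatives it stayed uncalled. It passed under 2, with DESeq2 (adjusted p = 0.0311) and without palmitate with C3a replicate 2 (-0.88, adjusted p = 0.00532).

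**Figure D2:**
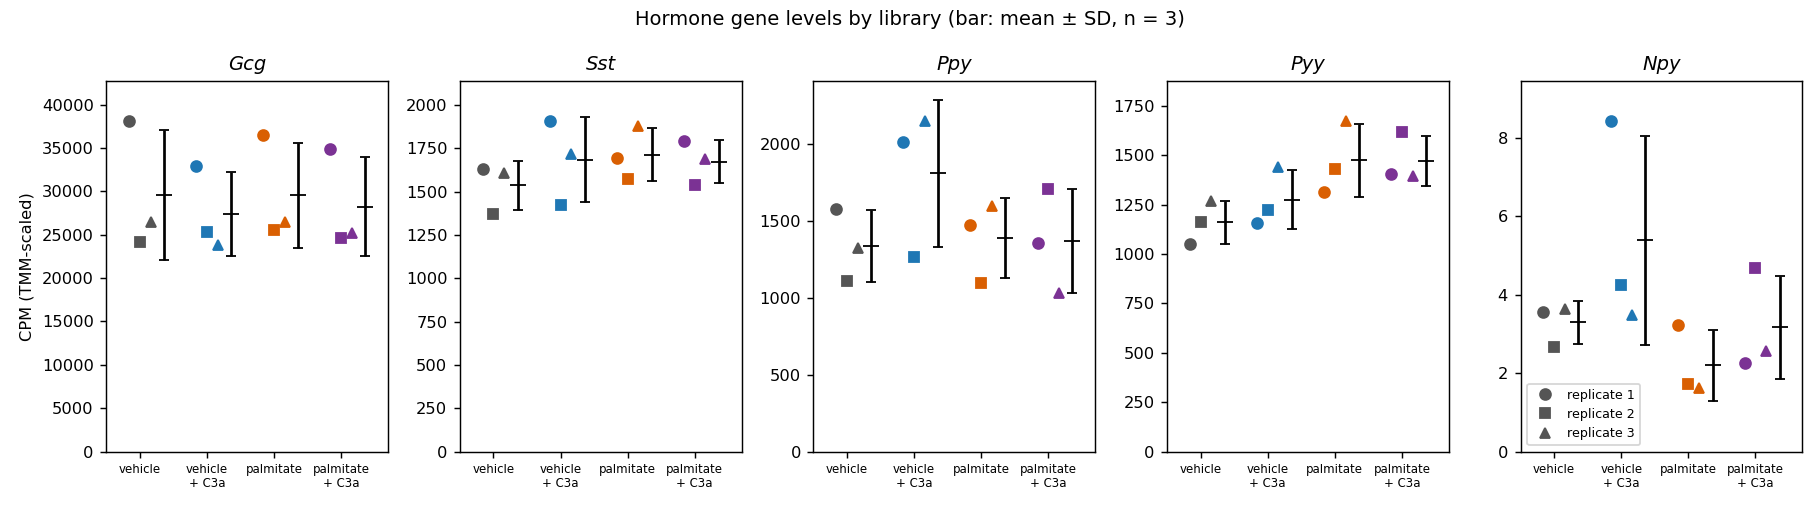
CPM of each hormone gene in the 12 libraries, by group, with the replicate number shown by the marker shape and each group's mean ± SD by a bar. The Pyy palmitate libraries, at 1315 to 1674 CPM, lie above the vehicle libraries, at 1051 to 1267, while the vehicle and palmitate libraries of the other genes overlap.

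Palmitate against vehicle thus called 1 of the 5 genes, Pyy, where 25.4% of all genes tested were called and 13.4% were called as higher. With C3a present it called 0 of 5 by edgeR, where 26.9% of all genes were called (13.8% higher and 13.1% lower), and Pyy was the only one of them with an unadjusted p under 0.05 (0.0236). DESeq2 also called 0 of 5. The average palmitate effect called 1 of 5, where 39.7% of all genes were called (20.3% higher and 19.4% lower). In that average Sst differed by 0.08 ± 0.07, Gcg by 0.02 ± 0.04 and Ppy by -0.17 ± 0.18. Members were called no more often than genes at large, and the counts say nothing particular about the set. In order of group means, each gene's neighbouring groups overlapped in range, for Pyy from palmitate (1473 ± 183 CPM, SD, n = 3) and palmitate with C3a (1472 ± 126) to vehicle with C3a (1274 ± 149) and vehicle (1159 ± 108).

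**Figure D3:**
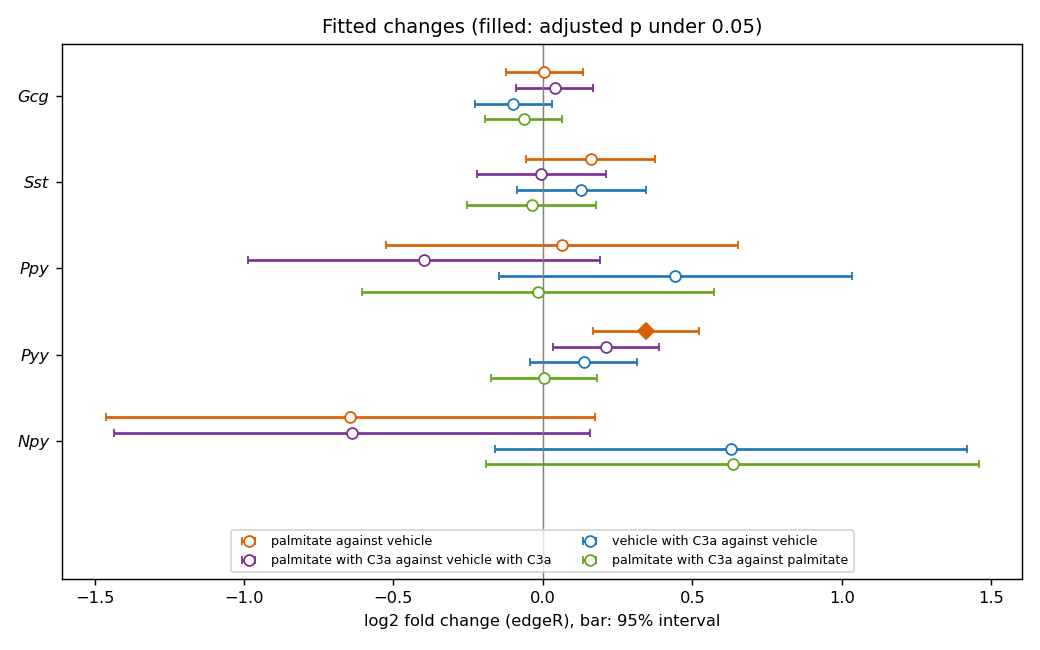
Fitted log2 fold changes of the 5 hormone genes with 95% intervals for palmitate and for C3a, each without and with the other agent. The filled symbol, Pyy in palmitate against vehicle at 0.34, is the only one past the threshold, and the intervals of Npy and Ppy are the widest.

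C3a moved none of the 5 genes past the threshold. In vehicle, where it shares the vehicle libraries with the palmitate comparison, the differences were 0.63 ± 0.36 for Npy, 0.44 ± 0.26 for Ppy, 0.14 ± 0.08 for Pyy, 0.13 ± 0.10 for Sst and -0.10 ± 0.06 for Gcg. Sst, Ppy and Pyy were higher with C3a in all 3 same-numbered pairs. In palmitate, Npy differed by 0.63 ± 0.37 (1.10 in batch 2 alone, and 0.16 without palmitate with C3a replicate 2), Gcg by -0.06 ± 0.06, Sst by -0.04 ± 0.10, Ppy by -0.02 ± 0.26 and Pyy by 0.00 ± 0.08. The 95% interval of Pyy, -0.17 to 0.18, leaves out a difference as large as its palmitate change of 0.34. Averaged over both states, Npy differed by 0.63 ± 0.26 (unadjusted p = 0.0323, adjusted p = 0.999), and it was higher in 4 of 6 same-numbered pairs.

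edgeR called 0 genes of the 15794 (0%) for C3a in palmitate and 0 (0%) in vehicle, with 430 and 347 at an unadjusted p under 0.05, and DESeq2 called 2 and 16, none of them a hormone gene. The average C3a effect called 1 gene (0.00633%), the predicted gene Gm21985, which fell (edgeR, adjusted p = 0.0306) and is named because it was the only one. It had 19 to 60 counts in the 6 libraries without C3a and 0 to 3 in the 6 with it, 5 of them at 0, and its call was lost under 13 of 21 alternatives. At an unadjusted p under 0.05 that comparison held 555 genes. The interaction of palmitate and C3a called 0 genes (0%) by edgeR and by DESeq2, with 251 at an unadjusted p under 0.05. Among the hormone genes it was -0.46 ± 0.36 for Ppy, -0.17 ± 0.14 for Sst, -0.13 ± 0.11 for Pyy, 0.03 ± 0.08 for Gcg and 0.01 ± 0.48 for Npy (0.80 in batch 2 alone), so that a different palmitate response of Pyy with C3a was not shown.

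Ratios within a library do not depend on the scaling between libraries. Per 100 counts of Ins1 plus Ins2, Pyy had 0.652, 0.841 and 0.938 counts in vehicle and 0.684, 0.830 and 0.950 in vehicle with C3a. It had 1.08, 1.07 and 1.14 in palmitate and 1.24, 1.22 and 1.02 in palmitate with C3a. All 6 palmitate libraries were above all 6 without it. The log2 ratio was higher by 0.48 with palmitate, with p = 0.00926 in an exact two-sided permutation within replicate numbers, the smallest these 216 arrangements can give, and adjusted p = 0.0648 over 14 tests. At that smallest p, adjustment lets a ratio pass only where at least 3 of the 14 reach it.

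Sst had 1.01, 0.996 and 1.19 counts per 100 insulin counts in vehicle and 1.13, 0.967 and 1.13 in vehicle with C3a. It had 1.39, 1.18 and 1.28 in palmitate and 1.59, 1.16 and 1.23 in palmitate with C3a, so that vehicle replicate 3 overlapped the palmitate libraries. Its ratio was higher by 0.28 with palmitate and in 6 of 6 same-numbered pairs, with the same permutation p of 0.00926 and adjusted p = 0.0648. The insulin counts below the line moved too: Ins2 fell by 0.18 ± 0.07 in the average palmitate effect (adjusted p = 0.0486, a call lost under 15 of 21 alternatives), and Ins1 differed by -0.24 ± 0.09 (adjusted p = 0.0513, past the threshold under 5 of them). In batch 2 alone these changes were -0.053 and -0.055. Their part in these ratios was not tested.

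Pyy relative to its neighbour Ppy was higher by 0.45 with palmitate, from a mean log2 ratio of -0.33 ± 0.36 to 0.12 ± 0.25 (SD, n = 6 each), with exact permutation p = 0.037 and adjusted p = 0.173. Gcg per insulin count was higher by 0.23 (exact permutation p = 0.0556, adjusted p = 0.194) and Sst per Gcg by 0.05 (exact permutation p = 0.528, adjusted p = 0.719). Of the 14 ratio tests, 3 had an exact permutation p under 0.05 and 0 passed after adjustment. In batch 2 alone the palmitate differences per insulin count were 0.32 for Pyy, 0.18 for Sst and 0.086 for Gcg. When the labels were permuted among all 12 libraries without regard to number, Pyy and Sst per insulin count passed (adjusted p = 0.0303 and 0.0455).

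**Figure D4:**
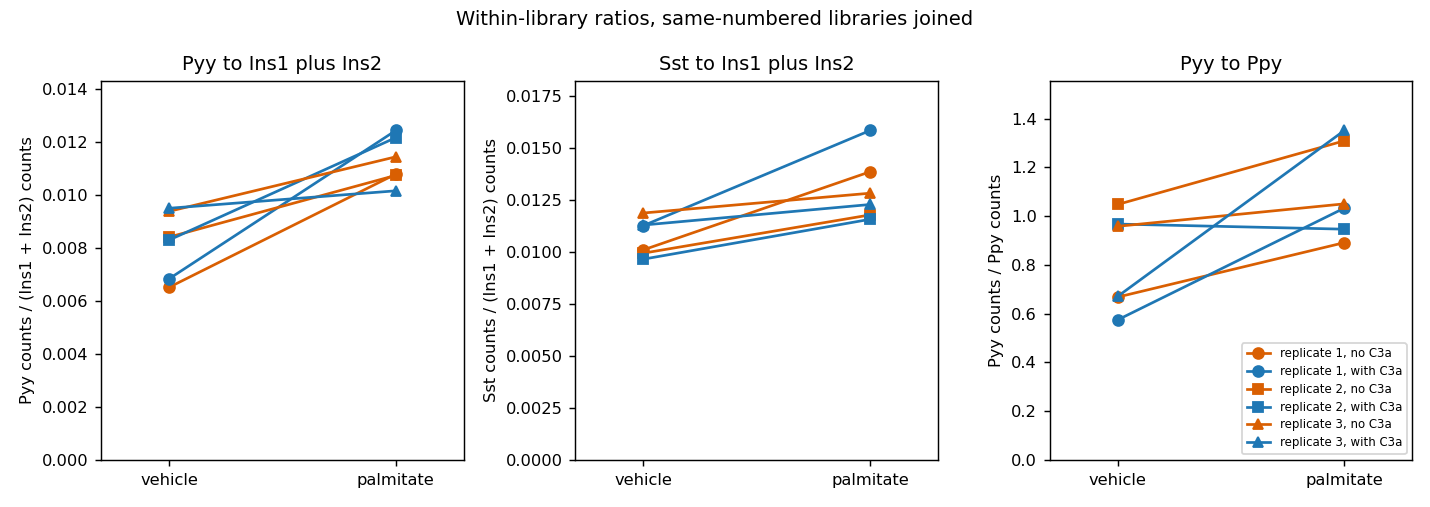
Counts of Pyy and of Sst per count of Ins1 plus Ins2, and of Pyy per count of Ppy, in vehicle and palmitate, with lines that join same-numbered libraries of the same C3a state. Lines for Pyy and Sst per insulin count rise in 6 of 6 pairs, and those for Pyy per Ppy count in 5 of 6.

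The deposited table is per transcript, so gene sums could hide shifts between transcripts. Gcg-201 held 93.4% of the Gcg counts, Gcg-202 6.40% and the processed transcript Gcg-203 0.197%. Ppy-201 held 65.4% and Ppy-202 34.6% of Ppy, and Pyy-201 84.2% and Pyy-204 14.5% of Pyy. Sst and Npy have 1 transcript each. Tested over 41537 transcripts, the average palmitate effect called 10.4% of all transcripts and 2 of the 11 of these genes. Pyy-201, the main Pyy transcript, rose by 0.28 ± 0.07 (edgeR, adjusted p = 0.0321), and Gcg-203 rose by 0.42 ± 0.07 (edgeR, adjusted p = 0.0078).

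With C3a present, Gcg-202 was higher by 0.25 ± 0.05 with palmitate (edgeR, adjusted p = 0.0305) and Gcg-203 by 0.66 ± 0.11 (edgeR, adjusted p = 0.00905), where 4.76% of all transcripts were called. Gcg-201 differed by 0.00 ± 0.06 there. Without C3a, the palmitate difference was 0.01 ± 0.05 for Gcg-202 and 0.17 ± 0.11 for Gcg-203. For C3a, Gcg-202 differed by -0.25 ± 0.05 in vehicle, not past the threshold, and by -0.02 ± 0.05 in palmitate. The interaction of palmitate and C3a was 0.24 ± 0.07 for Gcg-202 and 0.49 ± 0.15 for Gcg-203, neither past the threshold. A different palmitate response of these transcripts with C3a was thus not shown. Palmitate against vehicle called 0 of the 11 by edgeR and 3.99% of all transcripts. There Pyy-201 and Pyy-203 had an unadjusted p under 0.05, with adjusted p of 0.0711 and 0.172, and DESeq2 was not run on transcripts. The counts are estimates that divide reads shared by overlapping transcripts, and the uncertainty of that division was not analysed here.

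The genes that surround these hormones in their pathways came from lists, named by smallest p. Of all genes tested, 20.3% rose and 19.4% fell in the average palmitate effect, 39.7% in all. Of 8 tested hormone receptors of 14 listed, 0 rose and 5 fell in that average, with a median of -0.34 against -0.0014 for all genes tested. Glp1r, the GLP-1 receptor of beta cells, fell by 0.89 ± 0.05 (adjusted p = 2.54e-07), and Gcgr, the glucagon receptor, fell by 0.70 ± 0.07 (adjusted p = 1.94e-05). The somatostatin receptors Sstr2 and Sstr3 fell by 0.48 ± 0.10 and 0.18 ± 0.04, and Gipr, the receptor of the gut hormone GIP, fell by 0.37 ± 0.08. Npy1r, a receptor of the Y family, differed by -0.22 ± 0.29 (adjusted p = 0.593).

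Of 11 genes of prohormone processing, 3 rose and 2 fell (39.7% of all genes were called), with a median of -0.03. Pam, which amidates the C-terminus of peptides such as Ppy, Pyy and Npy, rose by 0.93 ± 0.06 (adjusted p = 1.3e-06). Qpct, a glutaminyl cyclase, rose by 0.46 ± 0.08, and Cpe, which trims basic residues from prohormones, rose by 0.16 ± 0.03. The convertases Pcsk1 and Furin fell by 0.18 ± 0.03 and 0.19 ± 0.03, while Pcsk2, the convertase that makes glucagon in alpha cells, differed by -0.03 ± 0.05 (adjusted p = 0.736).

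Of 24 tested genes of other peptide hormones out of 32 listed, 9 rose and 2 fell (20.3% and 19.4% of all genes), with a median of 0.28. The granule peptide precursor Vgf rose by 2.29 ± 0.11 (adjusted p = 5.59e-07), Gast (gastrin) by 1.21 ± 0.22, Pdyn (prodynorphin) by 1.00 ± 0.08 and Nucb2 (nesfatin precursor) by 0.33 ± 0.03. Ucn3, a beta cell peptide that stimulates delta cells, fell by 0.28 ± 0.05. The other that fell was Ins2 (-0.18 ± 0.07), whose call was lost under 15 of 21 alternatives. This list also holds Ins1 and Iapp, and these reference genes count again among the beta cell markers.

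Of 20 tested endocrine transcription factors out of 22 listed, 4 rose and 10 fell (20.3% and 19.4% of all genes), with a median of -0.11. Pdx1, which drives beta and delta cell genes, fell by 0.52 ± 0.04 (adjusted p = 2.19e-06). Rfx6 fell by 0.36 ± 0.04, while Crem, of the CREB family, rose by 0.77 ± 0.06 and Etv1 by 0.48 ± 0.05. For C3a, averaged over both states, no listed gene of the 4 lists passed. The smallest p values there were those of Gcgr (0.14 ± 0.07) and Gipr (0.11 ± 0.08), Pcsk1n (0.26 ± 0.09) and Pam (-0.09 ± 0.06), Adcyap1 (1.54 ± 0.58) and Nucb2 (-0.08 ± 0.03), and Etv1 (-0.13 ± 0.05) and Creb1 (-0.10 ± 0.04).

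**Figure D5:**
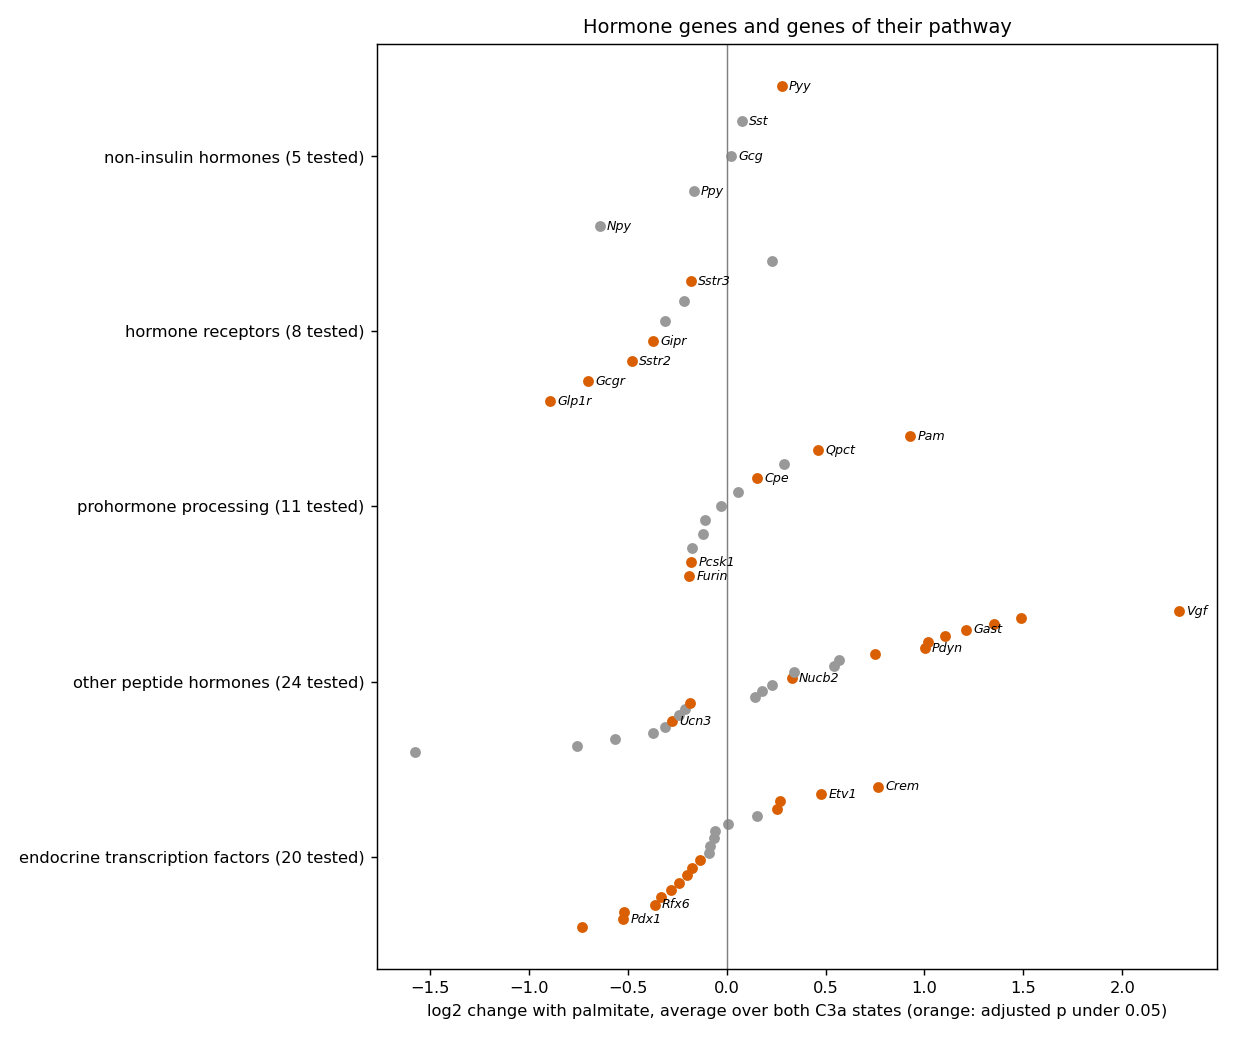
Log2 change with palmitate, averaged over both C3a states, of the 5 hormone genes and of each tested gene in 4 pathway lists, in orange where the adjusted p was under 0.05. All 5 called receptors lie left of 0, and Vgf, at 2.29, is farthest to the right.

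Markers of the hormone cells moved unevenly in the average palmitate effect, where 20.3% of all genes rose and 19.4% fell. The 9 alpha cell markers held 2 that rose and 3 that fell, and the 5 delta cell markers held 1 that fell, the ghrelin receptor Ghsr, and 0 that rose. Of 5 PP cell markers 2 rose, Etv1 and the water channel Aqp3 (2.01 ± 0.25), and 1 fell, Id4 (-0.68 ± 0.16). The summed PP list stood at 205 to 213 CPM in vehicle, 195 to 205 in vehicle with C3a, 222 to 243 in palmitate and 210 to 236 in palmitate with C3a. Meis2 and Etv1 made up most of it. Etv1 was at 72.4 to 85.5 CPM in vehicle and 89.5 to 121 in palmitate, while Meis2 overlapped (116 to 136 and 105 to 137). Aqp3 (0.22 to 1.63 CPM over all libraries), Id4 (0.43 to 1.88) and Sertm1 (1.46 to 3.43) were low and added little to the sum. The sum was higher with palmitate in both C3a states, without overlap, as Pyy was without C3a. Ppy, which marks PP cells, differed by 0.06 ± 0.26 without C3a and by -0.40 ± 0.26 with it, neither past the threshold. With C3a in vehicle the sum was lower in all 3 same-numbered pairs, where Ppy and Pyy were higher in all 3. The part of these markers in the Pyy change was not tested.

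Markers of sympathetic nerves, where Npy is also made, summed to 34.7 to 40.8 CPM in vehicle, 36.4 to 50.3 in vehicle with C3a, 27.5 to 28.8 in palmitate and 26.4 to 33.9 in palmitate with C3a. Of 4 tested, 1 fell, Th (-0.55 ± 0.05), and Dbh, the defining enzyme of noradrenaline synthesis, was at 0 in some libraries. The part of nerve RNA in the Npy values was not tested. Of the other lists, beside 20.3% and 19.4% of all genes, 1 of 10 beta cell markers rose and 6 fell, 7 of 8 endothelial and 3 of 4 Schwann cell markers fell, and 2 of 8 fibroblast and pericyte markers fell. Macrophage markers (8) and duct markers (7) had 1 higher and 1 lower each, and 0 of 10 acinar markers were called.

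Among themselves the 5 genes followed different courses over the 12 libraries, after the mean of each replicate number was removed from log2 CPM. Pearson's r was 0.70 for Sst and Pyy, 0.55 for Ppy and Npy, 0.38 for Sst and Ppy and 0.23 for the neighbours Ppy and Pyy. It was -0.35 for Pyy and Npy and -0.06 for Sst and Npy, and it lay between -0.46 and -0.06 for Gcg with each other gene. The genes most like Pyy were Rab25 (r = 0.96), Rala (0.96), Ndrg4 (0.96) and Morn4 (0.95). Those most like Npy were Syt1 (0.94), Cant1 (0.94), Sult4a1 (0.93) and Slc9a3r2 (0.91). For Sst they were Gtf2h2 (0.90), Vapb (0.89), Tspan15 (0.87) and Mrpl50 (0.86), and for Ppy Tspan8 (0.90), Folr1 (0.86), Ddx24 (0.86) and Nubpl (0.85). The nearest to Gcg were Scd2 (0.86), Zfp979 (0.86), Zfp960 (0.85) and Stard3 (0.81). These are the highest among at least 10646 genes compared over 12 libraries that share their treatments, and they are given as a description.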

How the data were processed

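Messenger RNA of cultured mouse islets was sequenced after library preparation with a stranded kit, per the labels' protocols. The values used are estimated counts per transcript, which the authors deposited without normalization. kallisto and DESeq2 are named, with the genome build GRCm38, per the submitters' processing notes. The sources used here do not give their roles or versions, the transcriptome release or the strand setting.

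By identifier, 69942 of 71524 transcripts matched GENCODE M21 and were summed to 22141 genes and rounded. The unmatched ones held 0.581% to 0.677% of a library. No 2 libraries agreed within sampling noise (66 pairs, lowest chi-squared per degree of freedom 7.35).

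edgeR 4.0.16 in R 4.3.3 used filterByExpr (15794 genes kept), TMM (factors 0.967 to 1.045) and the robust quasi-likelihood test. Group and sequencing batch were terms over all 12 libraries, with 7 residual degrees of freedom and a common biological coefficient of variation of 11.2%. Tests were two-sided, adjusted within each of 7 comparisons at 0.05. Standard errors are the absolute log2 change over the square root of F. On simulated data for the average palmitate effect (15623 genes, 200 changed), 99% of changes of 1 and 71% of changes of 0.5 on the log2 scale were called, with 6.08% false calls. DESeq2 1.42.0 was an alternative.

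Same-numbered libraries share a batch per the labels, and their deviations from group means correlated at 0.395 to 0.762 (18 pairs). A shift between batches alone can give such correlations, so they do not show that the libraries are paired. That the numbers pair the libraries was taken from the labels as an assumption. Ratios were permuted within replicate numbers, with NumPy 2.4.6.

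The members, lists and tests were chosen with earlier results of these data known. Named genes were the 5 hormones, the reference genes Ins1, Ins2 and Iapp, up to 5 members per pathway list by smallest p for palmitate and up to 2 for C3a, and the 4 genes with the most similar pattern (at least 5 CPM). Cell type markers covered alpha, delta, PP, beta, acinar, duct, endothelial, fibroblast and pericyte, macrophage, sympathetic nerve and Schwann cells. A gene that this rule names is not reported here. Markers, Npy1r and Pcsk2 were named after their values were seen. Protein sequences were not used here.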

Additional observations from a re-analysis of the deposited data

How the results depend on the processing

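The Pyy call in palmitate against vehicle held when any 1 of the 12 libraries was left out (log2 change 0.27 to 0.40) and was lost without the batch term and in batch 2 alone, where 0 of the 5 hormone genes were called, and in batch 2 alone it was also lost from the average palmitate effect (0 called). For the average palmitate effect over all 12 libraries, DESeq2 called 2 hormone genes, Npy being the second. Leaving out 1 library gave 1 to 2 for that average with edgeR, and 0 to 1 for palmitate with C3a present. The cause of these changes was not tested. With the replicate number as a block, the difference of Pyy was 0.34 (adjusted p = 0.00611) and the average 0.28 (adjusted p = 0.00148). The block changed no call of a hormone gene. Of the other named genes, Ins2 lost its call under 15 of 21 alternatives (-0.22 to -0.13 with 1 library left out, -0.053 in batch 2 alone) and Gm21985 under 13, at fitted values, which depend on the prior count, of -7.98 to -6.11. Sstr3 (-0.19), Pcsk1 (-0.18), Id4 (-0.67) and Ghsr (-0.30) lost theirs only without the batch term and Gipr (-0.32) only in batch 2 alone. Iapp passed under 7 and Ins1 under 5. Depth was lowest for Npy, with 61 to 187 counts per library.

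Genes called fell without the batch term to 1841 (palmitate against vehicle), 2074 (with C3a present) and 4079 (average), and in batch 2 alone to 2058 and 2331 for the first 2. For C3a in palmitate they were 1 in batch 2 alone, 2 with DESeq2 and 0 to 1 with 1 library left out. For C3a in vehicle they were 3 without the filter on low counts, 2 with only the compared groups, 16 with DESeq2 and 0 to 1 with 1 library left out. The average C3a effect called 0 genes without the batch term, with the replicate block and with the main transcript of each gene, 2 with DESeq2 and 0 to 2 with 1 library left out. Of the ratios, 2 passed when permuted without regard to replicate number. The cause was not tested.

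The sign changed for differences that were not past the threshold. Gcg in palmitate against vehicle was -0.0095 with library totals alone and -0.0031 without the batch term, and Sst with C3a present was 0.015 with library totals alone and 0.038 in batch 2 alone. For C3a in palmitate, Ppy was 0.0043 with library totals alone, 0.013 with the replicate block and 0.026 in batch 2 alone. Pyy there was -0.0072 with DESeq2 size factors, -0.0063 with scaling that left out the hormone genes, -0.0071 without the filter, -0.00094 without the batch term, -0.046 in batch 2 alone, -0.015 with the main transcript and -0.0080 with DESeq2. The average C3a difference of Sst was -0.0083 and the average palmitate difference of Pcsk2 0.078, both in batch 2 alone. The interaction of Npy was, in the same order, -0.011, -0.0053, -0.0051 and -0.17, then -0.000103 with the main transcript and -0.015 with DESeq2, and that of Gcg was -0.029 in batch 2 alone. In batch 2 alone, Sst per insulin count was -0.051 with C3a and Ppy per insulin count -0.036 with palmitate.

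With 1 library left out, the ranges that crossed 0 were -0.046 to 0.048 for Gcg and -0.10 to 0.19 for Ppy in palmitate against vehicle, -0.10 to 0.062 for Sst with C3a present and, for the average palmitate effect, -0.0032 to 0.044 for Gcg and -0.053 to 0.014 for Pcsk2. For C3a in palmitate they were -0.27 to 0.15 for Ppy, -0.048 to 0.075 for Pyy and -0.11 to 0.064 for Sst. For the interaction they were -0.0085 to 0.085 for Gcg and -0.45 to 0.44 for Npy. For ratios with palmitate they were -0.038 to 0.13 for Ppy per insulin count and -0.028 to 0.13 for Sst per Gcg. For ratios with C3a they were -0.24 to 0.00053 for Gcg, -0.058 to 0.15 for Pyy and -0.059 to 0.084 for Sst per insulin count, and -0.24 to 0.0028 for Pyy per Ppy.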
